A study of Mus musculus with 20 samples.

Results

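The arrays described here compared LPS-treated with untreated macrophages that lack both adapters of the LPS receptor, by their label MyD88/Trif -/- double KO (double-KO below). They were chosen by their titles and are 5 of the 20 arrays of the study, 1 each at 1, 2, 4, 8 and 16 h. Macrophages were grown from bone marrow of age and gender matched C57BL/6 mice in medium conditioned by an L929 line that makes M-CSF, washed, and kept in serum-free medium with or without 200 ng/mL ultrapure LPS of Salmonella minnesota. Each array held 2 RNA samples of 1 genotype and time in 2 colours, LPS-treated RNA in Cy5 and untreated RNA in Cy3. The remaining arrays held MyD88-KO, TRIF-KO and wild-type cells at the same times, and 1 of them, MyD88-KO at 2 h, carried LPS-treated RNA in Cy3 and untreated RNA in Cy5 (the swapped array below). Nothing in the labels says that arrays came from separate animals or cultures, so p-values measure only the spread between these arrays. Because all 5 double-KO arrays have the same dye orientation, LPS and dye cannot be told apart within them.

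Lipopolysaccharide (LPS), a part of the outer membrane of Gram-negative bacteria, is bound by the receptor Tlr4 with its partners Ly96 and Cd14. Tlr4 signals through the adapter MyD88, which leads quickly to NF-kB and to cytokine genes such as Tnf, and through the adapter TRIF (gene Ticam1), which leads to interferon beta and the interferon-stimulated genes. Inside the cell, LPS can also be sensed by caspase-11 (gene Casp4), a step that itself needs neither adapter. In a 2-colour array a probe can also bind or read one dye better than the other, which gives a ratio away from 0 that does not turn when the RNA samples trade dyes.

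The double-KO ratios were narrow. The SD of the log2 ratio over probes was 0.139, 0.168, 0.184, 0.178 and 0.204 at 1, 2, 4, 8 and 16 h, against 0.219 to 0.982 on the arrays of the other genotypes. The scanner software called 58.1% to 66.3% of spots above background in Cy5 or Cy3, and 19 to 76 spots per array reached saturation in Cy5. The 1 h array lay on a slide with 3 MyD88-KO arrays and the other 4 shared a slide of their own, so time and slide are partly confounded. The Ticam1 probe read a median of 7.22 (log2 intensity, range 7.08 to 7.43) over the 10 double-KO values, against 10.56 in MyD88-KO, 10.94 in TRIF-KO and 10.66 in wild-type cells, so it was not lower on the arrays labelled TRIF-KO. The Myd88 probe read 13.95 in double-KO, 14.4 in MyD88-KO, 14.76 in TRIF-KO and 14.78 in wild-type cells. The sources used here do not say whether these probes lie in the removed parts of the genes. All 10 macrophage markers were well above background in both channels on the 5 double-KO arrays. Of 6 T cell markers 4 were kept, all 4 well above background in both channels, at mean log2 intensities of 8.39 to 10.12. B cell, fibroblast, NK and erythroid markers were kept in 3 of 5, 3 of 7, 1 of 4 and 1 of 4 cases, and mast cell markers in 0 of 4. Cd3d, Cd3g, Pax5, Ncr1, Col3a1 and Pdgfra were among those below the filter. All 8 neutrophil markers and 4 of 5 dendritic cell markers were kept. Of the dendritic markers Siglech was bright, at a mean log2 intensity of 17.33, and the other 3 read 7.54 to 8.28. Summed dendritic marker intensity ran from 125872 to 182172 in LPS-treated and from 128274 to 173974 in untreated cells.

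The probes with the highest ratios of all carried a run of GT. These sequences are printed because the highest ratios turn on them, each beside another probe of the same gene where there was one. The lines give 30 bases of each 60-base probe, 5′ to 3′, from the deposited files, with the GT run, or its part in these 30 bases, in capitals. The repeat probe of Dennd4a, a regulator of Rab GTPases, lies at chr9:64659886-64659945 (mm9, plus strand), and its other probe at chr9:64766962-64767021. Those of Ehmt1, a histone methyltransferase, lie at chr2:24646395-24646454 and chr2:24646765-24646824 (minus strand), and those of Sp110, a nuclear body protein, at chr1:87473677-87473736 and chr1:87473511-87473570 (minus strand). Those of Luc7l2, a splicing factor, lie at chr6:38559052-38559111 and chr6:38558870-38558929 (plus strand). The positions were not annotated as exon or intron here.
Dennd4a repeat probe: TGTGTGTGTGTGTGTctgtgcacacgcgcg
Dennd4a other probe: agaactcagtaagtcctgctccaaagaaaa
Ehmt1 repeat probe: GTGTGTGTGTgagtgtgtgtgactcttcta
Ehmt1 other probe: atgatgaataaactcgtttgttttttacca
Sp110 repeat probe: TGTGTGTGTGTGTGTctgaactttgccttt
Sp110 other probe: aatactagacagtaaaaataaagctgttgg
Luc7l2 repeat probe: TGTGTGTGTGTGTGTagagtttaaagacta
Luc7l2 other probe: agttgaacagctgttgccttacatactttt

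The Dennd4a repeat probe had log2 ratios of LPS over untreated of 1.00, 0.95, 0.94, 1.22 and 1.27 at 1, 2, 4, 8 and 16 h. Its mean was 1.07 ± 0.06 (SE, 5 arrays, adjusted p = 1.4e-05 by limma's moderated test against 0, Benjamini-Hochberg over all probes). On the swapped array, where Cy5 held untreated RNA, its log2 Cy5/Cy3 was 0.66, still above 0. The 4 other Dennd4a probes averaged 0.05, -0.09, -0.05 and 0.15 on the double-KO arrays. High Cy5 thus followed this probe on all 6 arrays and not the other probes of its gene. The Ehmt1 repeat probe averaged 1.06 in double-KO and read 0.86 on the swapped array, while its other probe averaged -0.06. The Sp110 repeat probe averaged 1.02 in double-KO and read 0.82 on the swapped array, and its other probes averaged -0.04 and 0.04. The Luc7l2 repeat probe averaged 1.02 in double-KO and read 0.83 on the swapped array, with other probes at -0.06, -0.11 and 0.08. All 12 named genes with the largest means carried such a run. Sema4c, Ccdc138, Spag7, Fam160b2, Cyp2u1, Skint7, Creb5 and Arl6ip6 averaged 1.01 to 1.04 in double-KO and read 0.68 to 0.85 on the swapped array. With all 20 arrays and a term for dye, the ratios of these 12 genes were 0.28 to 0.97 and none passed. That term rests on the swapped array alone, which leaves it imprecise, so the loss does not tell dye from LPS.

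Of the 23723 probes kept, 137 (0.577%) had 5 or more uninterrupted GT units. They were bright, with a median log2 intensity of 17.2 against 10.44 for all kept probes. Their median ratio in double-KO was 0.60, 0.64, 0.60, 0.99 and 0.96 at 1, 2, 4, 8 and 16 h, and 0.51 as Cy5/Cy3 on the swapped array, where 135 of 137 lay above 0. On each of these 6 arrays the median of all other probes was 0. Between 6 and 21 of the 137 were saturated in Cy5 on a double-KO array, and 1 on the swapped array. In the test of the mean against 0, a probe counted as higher or lower at all 5 times if it passed an adjusted p of 0.05 and kept one sign on all 5 arrays. This held for 132 of the 137 (96.4%) as higher and 0 as lower, against 10.9% of all probes as higher and 8.96% as lower. Of all probes above a log2 intensity of 17, repeat probes included, 58% were higher and 3% lower, so 10.9% is a low comparison for such bright probes. The share grew with the run. Probes with 2 or fewer units were higher at all times in 9.87% of cases, those with 3 or more in 41.1%, those with 4 or more in 84.4% and those with 6 or more in 100%. The median mean ratio was 0.10 at 3 or more units, 0.69 at 4 or more and 0.92 at 10 or more, and on the swapped array 0.13, 0.46 and 0.60 at the same cuts. The 57 probes with 5 or more CA units in a run, and no GT run of 5 or more, had a median of 0.18 in double-KO and -0.06 on the swapped array. Of them, 63.2% were higher at all 5 times.

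**Figure D1:**
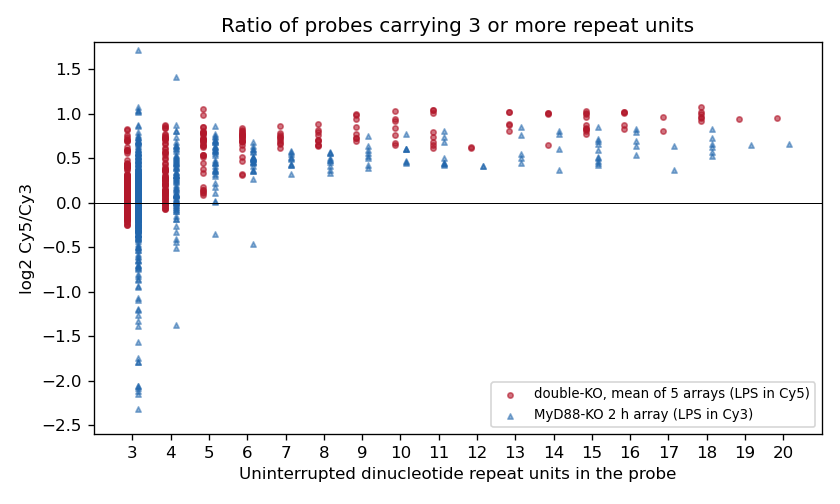
Log2 Cy5/Cy3 (vertical axis) against the number of uninterrupted GT units in the probe (horizontal axis) for the 767 kept probes with 3 or more units. Red circles are double-KO means of 5 arrays with LPS in Cy5, and blue triangles the MyD88-KO 2 h array with LPS in Cy3. From 7 units on, all points of both kinds lie above 0. The vertical axis is cut, so the lowest triangles, down to -5.11, are not shown.

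The repeat probes also stood above 0 on arrays of cells that respond to LPS, by an amount that differed between genotypes. The plot of their medians on all 20 arrays shows double-KO and the other genotypes between 0.51 and 0.80 at 1 and 2 h, the swapped array included. At 16 h the median was 0.96 in double-KO, 0.07 in MyD88-KO, 1.07 in TRIF-KO and 2.03 in wild-type cells, and in MyD88-KO 75 of the 137 lay above 0. The cause of that spread between genotypes at 16 h was not tested. Among the other probes of genes with a repeat probe, 51.5% of 68 pairs had the sign of the repeat probe and 6 (8.82%) were themselves higher at all times, and their median was 0.00. Among all kept probes 56% of pairs shared a sign, and in 13.4% the other probe differed at all times with that sign.

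**Figure D2:**
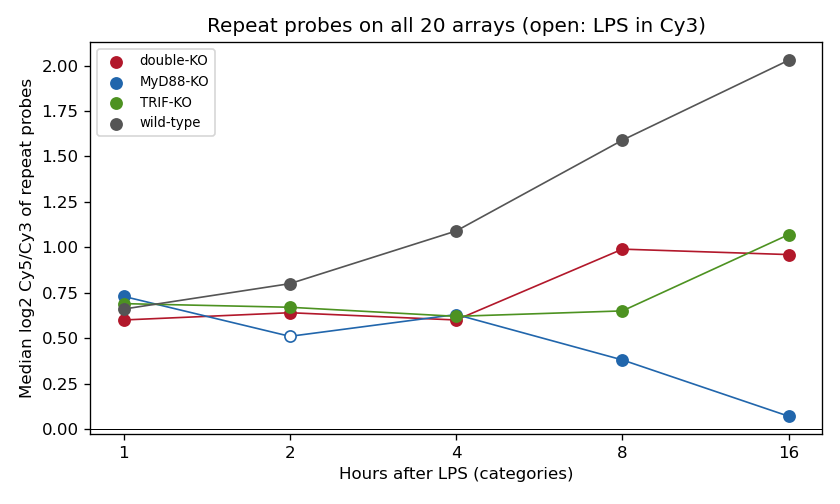
Median log2 Cy5/Cy3 of the 137 repeat probes (vertical axis) at each time in hours (horizontal axis, as categories), 1 point per array for the 4 genotypes. The open point is the MyD88-KO 2 h array, with LPS in Cy3. All 20 medians lie above 0, with the lowest at 0.07 and the highest at 2.03.

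A second set of high ratios came from dim probes next to very bright spots. Among probes higher at all times, 65 had a mean above 0.6 and a mean log2 intensity below 9. These were picked by their values, and all 65 lay beside a spot whose Cy5 intensity was at least 385236 (median of the brightest neighbour 590257, against 71493 for all kept probes), where 16.6% of dim probes had a neighbour over 300000. On the swapped array all 65 were above 0 again, with a median Cy5/Cy3 of 0.85, and for 42 of them Cy3 was well above background on no double-KO array. These 42 were kept through Cy5 alone, the channel in which they read high. For dim probes in general the share higher at all times was 2.85% where the brightest neighbour was under 100000 and 18.2% where it was over 500000. Their median mean ratio was 0.00 and 0.01 in these bands. As the filter takes a probe through either channel, it favours dim probes with high Cy5, so these shares are a description only. Repeat probes made up 66 of the 100 probes with the largest means, dim probes beside bright spots 27, and the others 7. Of these, Knop1, Nhlh1, Fam160a2, Cd300a, Npcd and Armcx3, named after their values were seen, carried 3 or 4 GT units.

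Over all probes, 4707 of 23720 (19.8%) differed from 0 at all 5 times, 2581 higher (10.9%) and 2126 lower (8.96%), in 4338 genes. Their median size was 0.19, and 254 were above 0.5 while 3 were below -0.5. Of those 254, 125 were repeat probes, 82 dim probes beside bright spots and 47 others. The share depended on brightness. At a log2 intensity of 14 to 16, 24% of probes were lower at all times, and above 17, 58% were higher. In a fit of all 20 arrays, the spread came from every genotype. There 55 probes passed with time as a replicate block and 46 without it. With a term for dye as well, 0 passed (172 of one sign at an unadjusted p under 0.05, limma). As only the swapped array informs that term, this count does not tell dye from LPS.

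The 8 named genes with the lowest means fell by less than the repeat probes rose. Elavl1 encodes HuR, a protein that binds AU-rich messenger RNA. Its ratios were -0.55, -0.59, -0.51, -0.55 and -0.59 in double-KO, with a mean of -0.56 ± 0.03 (SE, 5 arrays, limma adjusted p = 1.4e-05), and its Cy5/Cy3 was -0.50 on the swapped array. The values hardly differed between times, and the other Elavl1 probe averaged -0.10 and did not pass. Senp3, a SUMO protease, averaged -0.47 in double-KO and read -0.41 on the swapped array, with another probe at -0.01. Pcbp1, a binder of C-rich RNA, averaged -0.46 in double-KO and read -0.63 on the swapped array. Ralb, a small GTPase, averaged -0.46 in double-KO and read -0.43 on the swapped array. These 4 genes thus had the same sign and a similar size of Cy5/Cy3 in both dye orientations. Ptges3, a co-chaperone of Hsp90, was lower at several probes, with means of -0.48, -0.28, -0.23 and -0.10 in double-KO and -0.66 on the swapped array at the first. R3hdm2 was lower at both its probes, -0.52 and -0.25 in double-KO, against -0.30 and -0.15 on the swapped array. Pde4a, a cyclic AMP phosphodiesterase, averaged -0.52 in double-KO and read -0.16 on the swapped array, and its other probe averaged 0.06. Rhbdf2, which carries the protease that sheds Tnf, averaged -0.47 in double-KO and read -1.39 on the swapped array. That value also holds the MyD88-KO response with its sign turned, which was 1.56 at 4 h. With median centring in place of loess, 7 of these 8 genes no longer passed as lower, and Pcbp1 stood at 0.03.

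The swapped array gave a check of sign over the whole set, with the limit that its cells have TRIF and respond. A bias of the dye keeps the sign of Cy5/Cy3 when the dyes are traded, and a response to LPS turns it. Of the probes that differed at all 5 times, 70.9% (3335 of 4707) kept the sign on the swapped array, 75.3% of those higher and 65.4% of those lower, against 58.5% of all kept probes. Outside the repeat and dim classes the shares were 72.4% and 65.6%. Among those whose MyD88-KO response was under 0.25 in size, 76.8% (2533 of 3300) kept the sign, against 60.2% of all probes with such a response. That response averaged the mean ratio at 1 and 4 h with the LPS ratio of the swapped array itself. The swapped value thus helped to choose these probes, so their share is not an independent check. A test of the difference between the swapped array and the double-KO mean passed for 5188 probes (21.9%). It takes the spread of a lone array of responding cells, whose ratios had an SD of 0.472, from the narrower double-KO arrays, so it does not separate dye from genotype. Outside the repeat and dim classes, the 2240 probes higher at all times had a median of 0.188 in double-KO and 0.105 on the swapped array. For the 2100 lower ones the medians were -0.179 and -0.09, and for all kept probes -0.001 and 0.001. Correlations over probes, given as a description, ran from 0.46 to 0.66 between double-KO arrays and from 0.10 to 0.24 between them and the swapped array. The 5 share genotype, dye orientation and probes, and 4 of them a slide.

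**Figure D3:**
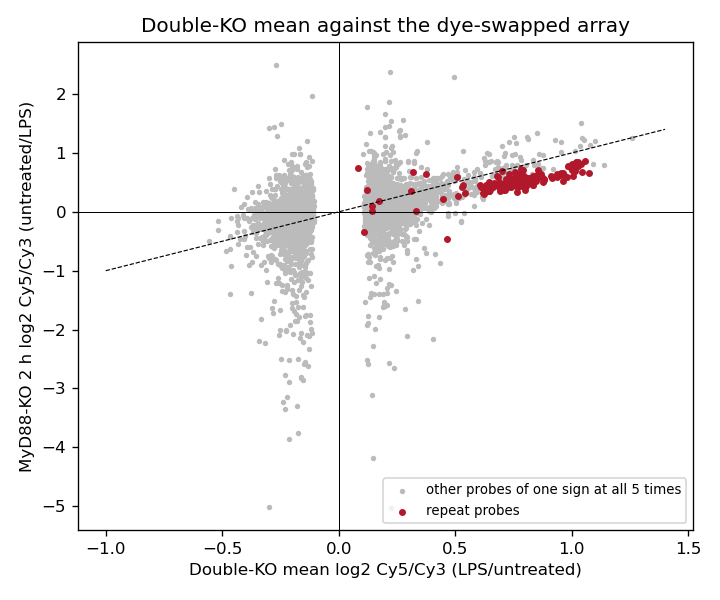
Cy5/Cy3 of the MyD88-KO 2 h array, untreated over LPS (vertical axis, log2), against the double-KO mean, LPS over untreated (horizontal axis, log2), for probes of one sign at all 5 times (grey) and the 137 repeat probes (red). The dashed line marks equal values, and nearly all repeat probes lie in the upper right field, 135 of 137 above 0 on the vertical axis.

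Genes read by several probes gave the second check. Of 4190 genes with at least 2 kept probes, 79 (1.89%) were higher at all 5 times on every probe and 74 (1.77%) lower on every probe. In all kept probes, 13.4% of pairs had the other probe differing at all times with the same sign. It was 28.2% for higher and 19.6% for lower probes outside the repeat and dim classes. For 52 of the 79 and 45 of the 74, every probe also had the same Cy5/Cy3 sign on the swapped array. Genes named from here to the end of the paragraph were picked after their values were seen. Tpt1, an abundant growth-related protein, averaged 0.49, 0.32 and 0.33 on its 3 probes in double-KO, against 0.52, 0.17 and 0.35 on the swapped array. Rpl10, a ribosomal protein gene, averaged 0.57, 0.39 and 0.24 in double-KO and read 0.43, 0.40 and 0.27 on the swapped array. Rps28, another ribosomal protein gene, averaged 0.45 on both probes in double-KO and read 0.19 and 0.20 on the swapped array. Hnrnpk, an RNA-binding protein gene, averaged -0.35, -0.37 and -0.22 in double-KO and read -0.29, -0.35 and -0.30 on the swapped array. Such genes can have close copies elsewhere in the genome whose RNA the probes may share, so their identity is uncertain.

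In 9 genes higher and 13 lower on every probe, every probe had the opposite Cy5/Cy3 sign on the swapped array. These, too, were named after their values were seen. Ppp1r14b encodes an inhibitor of protein phosphatase 1. Its probes read -0.41, -0.43, -0.34, -0.33 and -0.37, and -0.31, -0.45, -0.37, -0.35 and -0.40 at 1, 2, 4, 8 and 16 h in double-KO, and 0.03 and 0.07 on the swapped array. Atg4c, a protease of autophagy, averaged 0.30 and 0.36 in double-KO and read -0.16 and -0.18 on the swapped array. Its ratio in MyD88-KO was -1.81 and -1.68 at 4 h. Rnf144b, a ubiquitin ligase, averaged -0.18 and -0.25 in double-KO and read 0.49 on both probes of the swapped array, and was -1.25 and -1.62 in MyD88-KO at 4 h. Aar2 and Pef1, with means of -0.26 to -0.24, and Secisbp2 and Tmem248, with means of 0.13 to 0.22, were of the same kind. The Ppp1r14b values on the swapped array were near 0. The swapped array is 1 array of another genotype, on another slide and scanned on another day than the 5 double-KO arrays. Dye, genotype and scan day thus changed together, and the genes were picked for their opposite signs.

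The genes that Tlr4 signalling is known to induce were near 0 in double-KO. Among LPS receptor and caspase-11 genes, all 17 listed were kept, 1 was higher and 4 lower at all times, and the median mean ratio was -0.04, where 11.7% and 9.23% of genes at 1 probe a gene were higher and lower. Ly96 averaged 0.20 and Cd14 -0.19 on the log2 scale. Of 29 kept NF-kB feedback and immediate early genes, 2 were higher and 4 lower, and their median was -0.02 in double-KO against 1.12 in MyD88-KO at 1 h. Nfkbia, the inhibitor of NF-kB, had -0.38, -0.20, -0.18, -0.18 and -0.17 in double-KO, and -3.14 as Cy5/Cy3 on the swapped array. Tnf had 0.06, -0.01, 0.33, 0.19 and -0.24 in double-KO, with no sign kept, and -3.07 on the swapped array. Il10 (-0.12) was the 1 of 9 kept cytokine genes that passed at all times, as lower.

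Of 12 kept chemokine genes, Cxcl11 (mean 0.31) was higher, and Ccl4 (-0.30), Ccl5 (-0.15) and Cxcl16 (-0.21) were lower. Of 33 kept interferon-stimulated genes, 0 were higher and 8 lower at all 5 times in double-KO, with a median of -0.13 that became 0.18 with median centring, where all genes moved to 0.14. Mx1, an antiviral GTPase, had -0.11, -0.34, -0.44, -0.09 and -0.57, and Oasl2, an antiviral protein of the 2-5A synthetase family, -0.41, -0.29, -0.30, -0.11 and -0.46. Their Cy5/Cy3 on the swapped array was 0.17 and -0.09. Irf7, Irf9, Usp18, Oas1a, Rtp4 and Bst2 averaged -0.23 to -0.18. The interferon median was 2.97 in MyD88-KO at 4 h. The share of genes higher at all times was below the 11.7% of all genes in each of the receptor, NF-kB, cytokine, chemokine and interferon lists. The share of lower ones was above the 9.23% of all genes in the receptor (4 of 17), chemokine (3 of 12) and interferon (8 of 33) lists. In the NF-kB (4 of 29) and cytokine (1 of 9) lists it was near that share. The receptor, chemokine and interferon lists were bright, with median log2 intensities of 13.61, 13.15 and 13.54. Of all probes, 14.6% were lower at an intensity of 12 to 14 and 24% at 14 to 16, so 9.23% is a low comparison for them. Of 22 inducible effectors, 18 stress and 18 cell cycle genes, 0, 1 and 1 were higher and 2, 1 and 4 lower, which for the cell cycle genes is above the 9.23% of all genes. Of 12 housekeeping genes 4 were higher, among them Gapdh (0.21) and B2m (0.29), above the 11.7% of all genes, and 1 was lower. The housekeeping list had a median log2 intensity of 16.2, and 16.9% of all probes at 16 to 17 were higher.

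At 16 h the sterol genes stood out from the earlier times. The contrast of the 16 h array with the mean of 1, 2, 4 and 8 h passed for 36 of 23708 probes (0.152%), of which 34 were lower (0.143%) and 2 higher (0.00844%), in 35 genes. At an unadjusted p under 0.05, 6.58% of probes were lower and 3.55% higher. For 30 of the 36 the mean of 1 to 8 h did not pass against 0, so they differed at 16 h only. The lone 16 h array is assumed to vary like the others. Animal cells short of sterol switch on SREBP-driven genes for the mevalonate pathway and cholesterol synthesis. Of the 17 genes of the sterol list, 11 passed as lower at 16 h, against 0.174% of genes at 1 probe a gene, and 14 did at an unadjusted p under 0.05, against 6.12%. Their median ratio was -0.02, 0.03, -0.08, 0.04 and -0.82 at 1, 2, 4, 8 and 16 h. The list was chosen with earlier results of these data known, so these shares are a description and not an independent check.

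Idi1, an isomerase of the mevalonate pathway, had 0.01, 0.08, -0.08, 0.14 and -1.29 at 1, 2, 4, 8 and 16 h. Its 16 h value differed from the earlier mean by -1.33 ± 0.10 (SE, limma adjusted p = 0.00674). Only the 16 h array was away from 0. Cyp51, a demethylase of sterol synthesis, had 0.09, 0.29, 0.28, 0.27 and -0.86, a difference of -1.09. Its earlier mean of 0.23 also passed against 0. Sqle, the squalene epoxidase, had -0.13, -0.08, -0.21, 0.03 and -1.12, a difference of -1.02. Insig1, a regulator that holds SREBP back, had -0.05, 0.07, -0.09, 0.24 and -0.90, a difference of -0.94 (adjusted p = 0.0273). In all 3 genes the 16 h value lay below the whole range of earlier ones. Among enzymes of the pathway, Hmgcs1 differed by -0.84, Sc5d by -0.90, Lss by -0.79 and Fdft1 by -0.69. Scd2, a fatty acid desaturase, differed by -1.11.

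Msmo1, of sterol synthesis, did not pass (-0.58, adjusted p = 0.0818). Neither did Srebf1 (-0.25) nor the efflux and LXR target genes Abca1 (0.05), Abcg1 (-0.22) and Mylip (-0.03). Hsd17b7, of sterol synthesis, and the lipid genes Fdps, Fads2, Elovl6 and Aacs passed outside the list, with differences of -1.22, -0.79, -0.88, -0.79 and -0.63. Hsd17b7 had -0.01, 0.09, 0.24, 0.11 and -1.12 over time, and Cyp2s1, a cytochrome P450, had -0.07, -0.07, -0.23, -0.25 and -1.25. Its earlier mean of -0.15 passed against 0, so Cyp2s1 was not counted as 16 h only. The same held for Cyp51, Spp1, Ccl2, 1 of the Ap1s3 probes and Camp, with earlier means of 0.23, 0.14, 0.17, 0.18 and -0.59. Other genes that passed as lower were Spp1 (-0.87), Plau (-0.85), Tnfsf15 (-0.83), Mmp12 (-0.71), Dcstamp (-0.60) and the chemokine Ccl2 (-0.70, adjusted p = 0.0411). Ccl2 had 0.13, 0.09, 0.30, 0.15 and -0.53. Of the passing probes 8 had other probes of their gene, and 9 of 11 pairs had the same sign, with a median of -0.31. Among all kept probes 8704 of 13438 pairs had the same sign of the 16 h difference. Ap1s3, which passed on both its probes, is counted from each side in these pairs, and no other named gene passed on more than 1 probe. Unnamed probes at chr13:68995988-68996047 and chr13:68996379-68996438 (mm9, plus strand) also passed. They lie close together, but each was counted as its own gene.

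**Figure D4:**
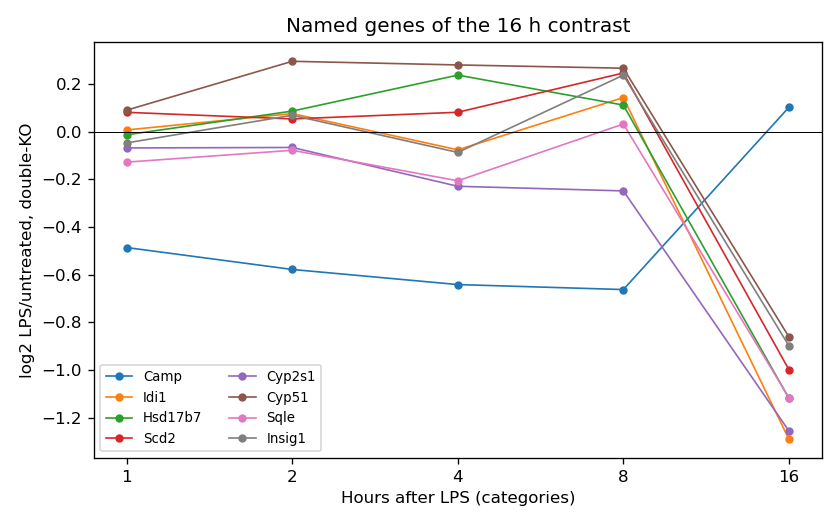
Log2 ratio of LPS over untreated in double-KO (vertical axis) at 1, 2, 4, 8 and 16 h (horizontal axis, as categories), 1 point per array, for 8 named genes of the 16 h contrast. Camp is the only one above 0 at 16 h, at 0.10, and the other 7 lie between -1.29 and -0.86.

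The 16 h count depended on the settings more than the values did. Without the 1 h array, which leaves the 4 arrays of 1 slide, 0 of 23707 probes passed (2192 at an unadjusted p under 0.05, limma). The differences were then -1.34 for Idi1, -1.14 for Cyp51 and -0.97 for Insig1, with adjusted p = 0.0568, 0.0568 and 0.136. It was also 0 with the authors' log ratio (2691 unadjusted), with median centring (1172) and with arrays scaled to one spread (1012), and in each of these 13 sterol genes were lower at an unadjusted p under 0.05. Under these scalings the median difference of the sterol list was -0.93 to -0.68.

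On the swapped array, 25 of the 36 probes had the Cy5/Cy3 sign of the double-KO mean. That array was taken at 2 h and holds the early MyD88-KO response, in which the sterol list's median LPS ratio was 0.60, so it bears little on the 16 h values. At 16 h the sterol median was -0.82 in double-KO, -1.04 in MyD88-KO, 0.58 in TRIF-KO and 0.18 in wild-type cells. The 34 passing lower probes had medians of -0.80, -1.14, 0.57 and 0.21 in the same order, and 25, 10 and 13 of the 34 lay below 0 in MyD88-KO, TRIF-KO and wild-type cells. No difference between genotypes was tested here, as each has 1 array at 16 h.

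The level of the sterol genes was also read in each channel. Between 1 to 8 h and 16 h the log2 level of the 11 passing sterol genes changed by a median of 0.17 in LPS-treated double-KO cells and by 1.07 in untreated ones. Idi1 changed by 0.11 in LPS-treated and 1.44 in untreated cells, Sqle by 0.74 and 1.76, and Insig1 by -0.46 and 0.48, LPS-treated first in each. All 11 were up in untreated cells, 6 of them by more than 1, as were 2.1% of all probes. These 11 genes and the 34 lower probes were chosen for a low 16 h ratio. That choice favours a high untreated level, so their shares are no support for it. Over all 17 genes of the sterol list the median change was 0.19 in LPS-treated and 0.77 in untreated cells, with 14 and 17 up. Of the 34 lower probes, 24 (70.6%) were up by more than 1 in untreated cells and 8 (23.5%) in LPS-treated ones. Mmp12, a macrophage protease, was up by 3.83 in LPS-treated and 4.53 in untreated cells, and Dcstamp, a cell fusion receptor, by 5.46 and 6.06. In untreated cells of the other genotypes the 11 sterol genes were up by 0.73 in MyD88-KO, 0.70 in TRIF-KO and 0.47 in wild-type cells. Levels in a channel also carry dye and array effects, and the comparison has 1 array at 16 h, so no test is given. In such bulk samples fewer cells of a type and less RNA per cell cannot be told apart.

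**Figure D5:**
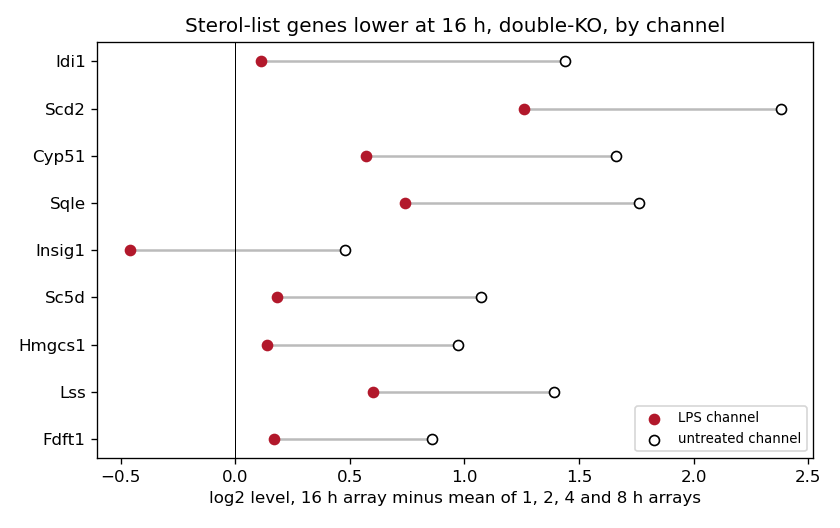
Change of the log2 level between the 16 h array and the mean of the 1, 2, 4 and 8 h arrays (horizontal axis) for 9 of the 11 sterol-list genes that passed as lower at 16 h, in double-KO. Filled points are LPS-treated and open points untreated cells. The genes were chosen for a lower ratio at 16 h, which places each untreated point to the right of its LPS point, so the position of the points against 0 is what the plot adds.

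The promoters of the sterol genes were searched for 1 form of the sterol response element, TCACCCCAC, on both strands in the window of 250 bases before to 50 after each gene's start (RefSeq, GRCm38.p6). It was found in 181 of 32851 promoters (0.551%). Of the 17 sterol genes 10 had a promoter entry, and 1 of them, Hmgcs1, held the motif. The window around it lies at chr13:119690204-119690233 on the plus strand, and the match, in capitals, starts 137 bases before the start of the gene.
Hmgcs1 promoter window: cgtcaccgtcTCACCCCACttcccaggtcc

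Genes that passed as higher at 16 h than at 1 to 8 h were markers of other blood cells. For Camp the mean of 1 to 8 h was -0.59 and passed against 0, while the 16 h value was near 0. The Camp difference is thus a return towards 0 from a lower ratio. Camp read 0.05 as Cy5/Cy3 on the swapped array. Camp, an antimicrobial peptide of neutrophil granules, had -0.49, -0.58, -0.64, -0.66 and 0.10, a difference of 0.69 ± 0.10 (SE, limma adjusted p = 0.0355). Under 13 other settings the Camp difference was 0.50 to 0.79 and passed in 6, with adjusted p = 0.0196 to 0.72. It did not pass without the 1 h (adjusted p = 0.118), 2 h (0.0923) or 4 h (0.0763) array. A second Camp probe differed by 0.60 (adjusted p = 0.177). Ms4a1, the B cell antigen CD20, had -0.01, 0.02, -0.08, -0.11 and 0.71, a difference of 0.75 (adjusted p = 0.0175), but was not well above background in both channels on every array. All 8 neutrophil markers were kept. Their median ratio was -0.10, -0.22, -0.29, -0.46 and 0.13, and S100a9, a calcium-binding protein of neutrophils, had -0.49, -0.49, -0.55, -0.76 and 0.14. At 16 h, 1 of the 8 passed as higher, against 0.0109% of genes, and 5 did at an unadjusted p under 0.05, against 3.77%. Summed neutrophil marker intensity ran from 29721 to 69117 in LPS-treated and from 38012 to 62895 in untreated double-KO cells, with 69117 and 59884 at 16 h. Summed B cell marker intensity ran from 1046 to 1463 in LPS-treated and from 905 to 1437 in untreated cells. The part of these cells in the 16 h values was not tested. Macrophage markers had a median 16 h difference of 0.00.

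Of the interferon-stimulated and chemokine genes, 1 passed at 16 h, Ccl2. All 33 interferon genes had a difference below 0, with a median of -0.25, where 9118 of 18368 genes lay below 0. At an unadjusted p under 0.05, 18 of the 33 were lower, against 6.12% of all genes, and 0 passed after adjustment (limma). Their level changed by 0.51 in LPS-treated and 0.72 in untreated cells. The chemokine list had a median difference of -0.30 and 7 of 12 genes lower at an unadjusted p under 0.05, with Ccl2 passing and Ccl4 at -0.55 (adjusted p = 0.0573).

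The other times set few probes apart. At 1, 2 and 4 h against the other times 0 probes passed (limma; 913, 895 and 697 at an unadjusted p under 0.05). At 8 h 37 passed (0.156%), 36 of them higher and 1 lower. Of these 37, 19 had a mean log2 intensity below 9 and 14 were not well above background in both channels on all arrays, where 33 of the 36 at 16 h were. The 8 h differences ran from -0.64 to 2.36. Thus the 8 h and 16 h counts were close to each other in number, and the 16 h probes were more often well measured and nearly all lower. The slope over log2 time passed for 0 probes (2036 at an unadjusted p under 0.05).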

How the data were processed

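The authors' scanner files give mean and background intensity of both channels and a log10 ratio of processed Cy5 over Cy3, made with Agilent Feature Extraction 10.10.1.1, per the file headers, which place probes on mm9. The log10 ratios deposited for the whole series are the same within 5e-10.

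From the deposited intensity columns, log2 ratios were computed here in limma 3.58.1 (R 4.3.3, data.table in version 1.17.8): normexp with an offset of 50, loess within each array, outlier spots missing, spots of a probe averaged. Of 39429 probes, 23723 (18368 genes) were kept because 3 or more of the 5 double-KO arrays showed them clearly over background in Cy5 or Cy3. Names came from RefSeq by accession (27234), symbol (3576) or synonym (565), and 8054 kept the file's name. limma's moderated test used the 5 double-KO arrays alone, or these and the swapped array, with Benjamini-Hochberg adjustment at 0.05. A missing ratio dropped that array for 44 probes. The number of arrays limits the precision. For lists, the brightest probe stood for each gene. Channel levels used loess and quantile-normalized mean intensity over all 20 arrays. The fits were tested on simulated data.

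Named genes were, among probes well above background in both channels on all 5 arrays, the 12 largest and 8 smallest means of those differing at all times, the 8 highest and 8 lowest passing at 16 h, up to 4 members of each list in its order, and other probes of these genes. Further genes that passed, and list members shown beside them, were named after their values were seen. Lists covered receptor, NF-kB, cytokine, chemokine, interferon, effector, stress, sterol, cell cycle, glycolysis (0 higher and 1 lower of 12 at all times), housekeeping and cell type genes. The T cell, fibroblast, NK, dendritic and erythroid lists had 0 members differing at all times, and 0 of 4 mast cell markers were kept. The question, the lists and the members were chosen with earlier results of these data known.

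Alternatives were other background correction, centring, filters, variance models, leaving out each array, and fits of all 20 arrays with and without a replicate block and a dye term. Array numbers stand for time points, so the block is time. The dye term rests on the swapped array alone. Some genes of the lists are not reported here. No column of per-sample values was left unused.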

Additional observations from a re-analysis of the deposited data

Results flagged for a closer look

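Among 28 genes named for the mean or the 16 h contrast, 8 had 1 double-KO array far from the other 4 by Dixon's test (critical value 0.71), and in all 8 it was the 16 h array. Chance flags about 1 in 20 such groups, and these 8 had been chosen for their 16 h difference, so this repeats that choice. The 16 h log2 ratio of LPS over untreated was -1.29 for Idi1, -1.12 for Hsd17b7, -1 for Scd2, -1.25 for Cyp2s1, -0.86 for Cyp51, -1.12 for Sqle and -0.90 for Insig1. It was 0.10 for Camp, whose other arrays lay between -0.66 and -0.49.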

How the results depend on the processing

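The 132 repeat probes that were higher at all times became 39 and 27 with all 20 arrays, with and without time as a replicate block, and 0 with a dye term, and were 131 to 135 without any 1 array. The 4707 probes of one sign became 55 and 46 in those fits, all higher, and 0 with the dye term, and 2503 to 4067 without 1 array (2503 without 4 h). Median centring, which moved the median of all genes by 0.14, gave 5562 higher and 44 lower. The share keeping its sign on the swapped array was 70.9%. It was 91.4% with median centring, 66.9% with the authors' log ratio, 73.4% with no filter, 74.3% with scaled arrays, 68.9% without repeat and dim probes, 98.2% and 95.7% with all 20 arrays with and without the block, and 70.4% to 75.4% without 1 array. The difference from the swapped array passed for 1533 probes with median centring and 1505 with scaled arrays, in place of 5188. Reversed were Pcbp1, 0.03 with median centring and 0.03 with the dye term, and Elavl1, 0.04 with the dye term. The causes were not tested.

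The 36 probes of the 16 h contrast became 0 with median centring, the authors' log ratio and scaled arrays, 82 with an intensity trend and robust prior, and 0 to 81 without 1 array (0 without 1 h, 16 without 2 h, 81 without 8 h). The 11 sterol genes became 0 in the same 3 settings (16 or 17 of 17 still below 0), and 0 to 13 without 1 array (0 without 1 h). The 8 lowest named genes kept their direction in all 104 values, from -1.55 to -0.73, and 70 still passed. The 37 probes of single earlier times became 63 with no background correction, 0 with the authors' log ratio, 65 with no filter, 1631 with scaled arrays, 67 with the trend, and 2 to 80 without 1 array. The slope, with 0 probes, gave 2027 with median centring (84 higher, 1943 lower) and 0 to 1 without 1 array. No fit separates dye from LPS within the double-KO arrays, and a dim or saturated spot bounds a ratio only.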
